A study of Mus musculus with 6 samples.

Results

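Expression of the coactivators YAP and TAZ, their TEAD partners and some of their target genes was measured in 6 mouse liver tumours on 1-colour Agilent arrays. The set held 10 genes, namely the coactivator genes Yap1 and Wwtr1 (TAZ), the factor genes Tead1, Tead2, Tead3 and Tead4, and the targets Amotl2, Ajuba, Ankrd1 and Axl. They were found through the accession that the array files give for each probe, which tied 15 of 56605 probes to these symbols. A probe was kept if the scanner marked it well above background in 2 of 2 tumours of some group, and 14 of the 15 were kept. All 10 genes were therefore among the 27414 features tested, 9 of them well above background on all 6 arrays.

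The tumours were hepatocellular carcinomas (HCC) of C57BL/6 mice, 2 in each of 3 groups. Epcam-derived HCC with CLC are called CLC tumours here, Epcam-derived HCC without CLC are called Epcam tumours, and Albumin-derived HCC without CLC are called Albumin tumours. CLC is a component of the tumour whose abbreviation the labels leave unexplained. The CLC and Epcam tumours both grew in Epcam-AID mice given tamoxifen and a 0.1% DDC diet over 8 months. DDC is a porphyrinogenic compound that injures bile ducts and provokes a ductular reaction. Albumin tumours came from Alb-AID mice aged 90 weeks. By the submitters' account the CLC and Epcam tumours derive from ductular progenitor cells, and the Albumin tumours from cells that express albumin. Strain and the AID element in the line's name are common to all groups, and the labels do not describe the alleles. Cell of origin, tamoxifen, diet and time differ together between the Albumin tumours and the other groups and cannot be told apart. The labels do not say whether the tumours of a group came from separate mice, so p-values measure the spread between these samples.

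The arrays lay on 2 slides, each scanned once. Slide 1 held CLC replicate 1 and both Albumin tumours, and slide 2 CLC replicate 2 and both Epcam tumours. On slide 1, 52.0% to 56.5% of probes were well above background, against 63.1% to 64.6% on slide 2, and 0 spots were saturated. Between Epcam and Albumin tumours, slide and group coincide. Alb, the albumin gene of hepatocytes, lay 9.41 to 10.35 log2 units above the 75th percentile of signal on all 6 arrays. The duct markers Epcam and Krt19, a keratin, were both seen in CLC tumours, and 1 Albumin array and 1 Epcam array lacked Epcam signal above background.

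YAP and TAZ are the transcriptional coactivators at the end of the Hippo pathway. The kinases MST and LATS phosphorylate them and keep them in the cytoplasm, and without that phosphorylation they enter the nucleus and bind DNA through TEAD factors. In the mouse liver YAP is high in bile duct cells and low in hepatocytes, and active YAP drives liver growth and a ductular fate. Control of YAP and TAZ acts largely on the proteins, so their mRNA levels do not measure their activity, and target genes are the usual readout.

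TEAD factors bind the letters GGAATG, or CATTCC on the other strand. The 250 bases before the annotated start (RefSeq, GRCm38.p6) were searched for them on both strands, and the windows of Yap1 and the 4 targets are printed because the comparisons below turn on these genes. Each is given 5′ to 3′ on the strand of its gene, with capitals marking GGAATG or CATTCC.
Yap1: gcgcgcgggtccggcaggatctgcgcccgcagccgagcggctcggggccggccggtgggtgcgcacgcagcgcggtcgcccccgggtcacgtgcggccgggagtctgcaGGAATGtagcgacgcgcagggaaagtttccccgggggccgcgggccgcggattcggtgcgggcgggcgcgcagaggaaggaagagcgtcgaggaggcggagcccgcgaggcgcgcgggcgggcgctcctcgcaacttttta
Amotl2: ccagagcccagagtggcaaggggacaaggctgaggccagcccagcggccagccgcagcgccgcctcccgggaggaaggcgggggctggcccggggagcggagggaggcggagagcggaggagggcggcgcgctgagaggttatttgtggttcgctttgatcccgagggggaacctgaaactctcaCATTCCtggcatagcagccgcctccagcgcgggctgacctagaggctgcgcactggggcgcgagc
Ajuba: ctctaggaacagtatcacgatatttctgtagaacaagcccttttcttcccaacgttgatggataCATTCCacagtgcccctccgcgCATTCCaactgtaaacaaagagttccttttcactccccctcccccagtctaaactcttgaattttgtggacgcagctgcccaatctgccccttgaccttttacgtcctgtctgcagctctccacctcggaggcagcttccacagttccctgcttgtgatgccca
Ankrd1: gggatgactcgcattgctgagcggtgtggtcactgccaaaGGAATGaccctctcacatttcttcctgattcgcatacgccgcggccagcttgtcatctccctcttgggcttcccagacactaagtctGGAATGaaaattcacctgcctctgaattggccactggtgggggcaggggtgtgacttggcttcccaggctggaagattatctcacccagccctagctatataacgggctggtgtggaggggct
Axl: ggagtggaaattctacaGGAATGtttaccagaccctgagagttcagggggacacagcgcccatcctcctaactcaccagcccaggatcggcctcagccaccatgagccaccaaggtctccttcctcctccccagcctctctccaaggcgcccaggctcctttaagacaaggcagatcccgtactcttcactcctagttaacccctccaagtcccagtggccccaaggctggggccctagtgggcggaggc
The Yap1 window is chr9:8004597-8004846 (minus strand), that of Amotl2 is chr9:102717554-102717803 (plus strand) and that of Ajuba is chr14:54577662-54577911 (minus strand). The Ankrd1 window is chr19:36119845-36120094 (minus strand) and the Axl window is chr7:25788734-25788983 (minus strand). The RefSeq table held 11 windows for 8 of the 10 genes. Of those 8 genes, 7 held the motif in some window and Tead2 did not, against 14.4% of all genes in the table. A wider list of YAP target genes, used below, includes the 4 targets. In that list 8 of 23 genes with a window held the motif, 34.8%. The 4 targets are among those 8, so this share and that of the members rest partly on the same genes. Counted by window, 9 of the 11 windows of the members held the motif, against 12.6% of all windows. The Wwtr1 windows, however, overlap and hold the same site. Ajuba and Ankrd1 each had 2 copies, with first bases at -186 and -164 from the start for Ajuba and at -210 and -123 for Ankrd1. The AP-1 motif TGANTCA, often found beside TEAD sites at enhancers, was in the windows of 0 of the 8 genes and in those of 7.82% of all genes in the table. A match of letters is not a measured binding site.

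No member passed the test in any comparison. The test was limma's moderated test on all 6 arrays, with Benjamini-Hochberg adjustment over the 27414 features and a threshold of 0.05. Between CLC and Epcam tumours, 0 of 10 genes were called, where 0% of all features were called. An unadjusted p under 0.05 was reached by 0 of the 10, against 3.48% of all features. Between Epcam and Albumin tumours, 0 of 10 were called, against 0.244% of all features, and 0 of 10 had an unadjusted p under 0.05, against 20%. Between CLC tumours and Albumin tumours it was 0 of 10, against 0.062%, and 1 gene, Axl, had an unadjusted p under 0.05, against 16%. Values below are log2 signal relative to the 75th percentile of the same array, so 0 is that percentile, and levels of different genes come from different probes and are not compared. Each group enters 2 of the 3 comparisons, which therefore share samples.

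**Figure D1:**
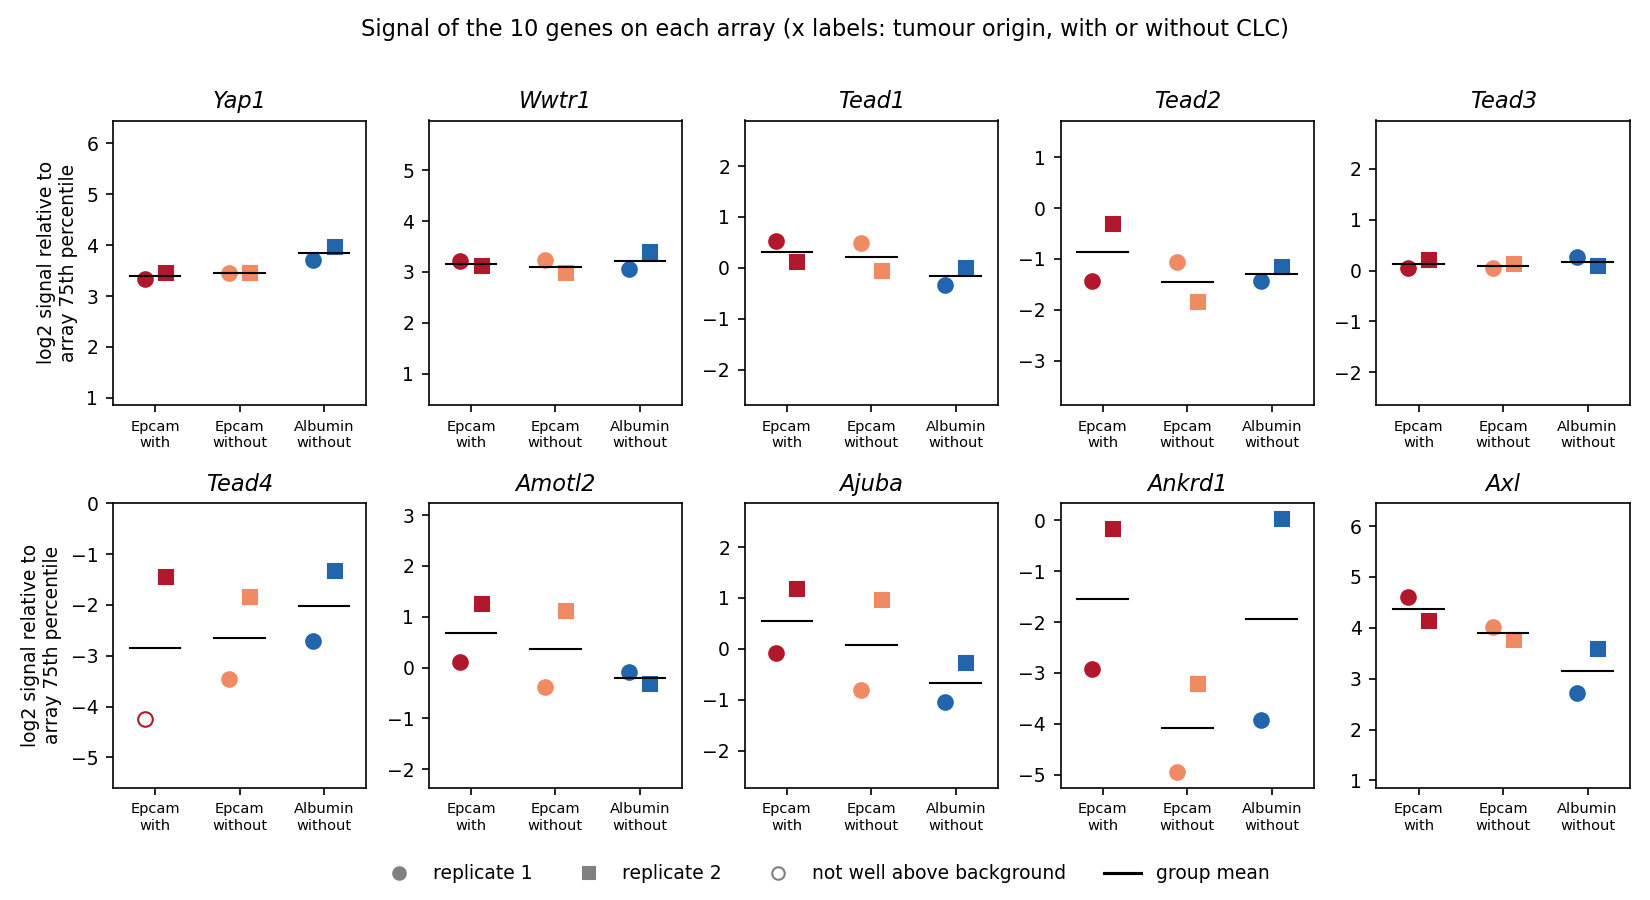
Log2 signal relative to the 75th percentile of each array (y axis, spanning the same number of log2 units in every panel) for the 10 genes in CLC tumours, Epcam tumours and Albumin tumours. Circles are replicate 1, squares replicate 2, open symbols values not well above background, and lines group means. Yap1, Wwtr1 and Tead3 vary least, Axl is higher in the CLC and Epcam groups than in Albumin tumours, and the replicates of Tead4, Ajuba and Ankrd1 lie far apart.

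Yap1 and Wwtr1, the coactivator genes, lay above the 75th percentile on all arrays, and each varied by under 1 log2 unit over the 6 tumours. Yap1 signal was 3.33 and 3.44 in CLC tumours, 3.45 and 3.46 in Epcam tumours, and 3.70 and 3.97 in Albumin tumours. The 2 Albumin arrays were the highest, and no 2 groups overlapped, although CLC and Epcam tumours differed by less than the spread within a group. The group means were 3.39 ± 0.08, 3.45 ± 0.01 and 3.84 ± 0.19 (SD, n = 2 each) in that order. Yap1 differed by -0.45 ± 0.25 (log2, SE) between CLC tumours and Albumin tumours (limma, adjusted p = 0.446), a fold of 0.732, with a 95% interval from -1.07 to 0.17. Within slide 1 the difference was -0.50. Between Epcam and Albumin tumours it was -0.38 ± 0.25 (adjusted p = 0.432), and between CLC and Epcam tumours -0.07 ± 0.25 (0.999). The interval of that last difference ran from -0.69 to 0.56. Summed hepatocyte markers, like Yap1, were highest in Albumin tumours: their linear signal summed over 10 genes, in multiples of the 75th percentile, was 2726 and 2024 in CLC tumours, 2573 and 2193 in Epcam tumours, and 4373 and 3904 in Albumin tumours. The brightest of these genes, such as Alb, made up most of each sum. Of the 10, 8 were lower and 2 higher in Epcam than in Albumin tumours. In CLC tumours, 9 were lower and 1 higher than in Albumin tumours. Summed duct markers (13 genes) were 74.2 and 118 in CLC tumours, 58.9 and 40.4 in Epcam tumours, and 19.3 and 50.1 in Albumin tumours. Spp1 made up most of that sum on every array but Albumin replicate 1. The median log2 level of the duct markers was -1.24 and -0.87 in CLC tumours, -1.22 and -3.70 in Epcam tumours, and -1.41 and -0.73 in Albumin tumours. The groups overlapped on that median. Of the 13 duct markers, 8 were higher and 5 lower in CLC than in Albumin tumours. Against Epcam tumours, 9 were higher and 4 lower in CLC tumours. In that comparison 7 were higher without overlap and 0 lower, against 10.3% and 19.8% of all features. Of those 2 lists, 0 genes were called in any comparison, and their part in the Yap1 signal was not tested.

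Wwtr1, which encodes TAZ, measured 3.21 and 3.12 in CLC tumours, 3.23 and 2.97 in Epcam tumours, and 3.06 and 3.38 in Albumin tumours. All 3 groups overlapped. Its differences were 0.06 ± 0.27 for CLC against Epcam tumours, -0.12 ± 0.27 for Epcam against Albumin tumours, and -0.06 ± 0.27 for CLC tumours against Albumin ones (log2, SE, n = 2). The 3 intervals had the same width and ran from -0.60 to 0.73, from -0.78 to 0.54 and from -0.72 to 0.61 in that order.

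The 4 TEAD genes encode DNA-binding factors with the same domain and partners, and they varied between tumours by different amounts. Tead3 was the steadiest member, at 0.04 and 0.21 in CLC tumours, 0.05 and 0.13 in Epcam tumours, and 0.26 and 0.10 in Albumin tumours. The whole range of Tead3 over 6 tumours was 0.22 log2 units, a fold of 1.16, and all groups overlapped. Its largest difference was -0.09 ± 0.25 (log2, SE), between Epcam and Albumin tumours.

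Tead1 had 3 probes, and the brightest stood for the gene. It gave 0.53 and 0.11 in CLC tumours, 0.49 and -0.06 in Epcam tumours, and -0.33 and -0.01 in Albumin tumours. The CLC tumours lay above both Albumin ones on this probe, by 0.49 ± 0.33 (log2, SE; limma, adjusted p = 0.521). The other 2 probes of Tead1 gave 0.62 and 0.67 for the same difference, and 0.54 and 1.27 for Epcam against Albumin tumours, where the brightest gave 0.38. For CLC against Epcam tumours the probes disagreed, at 0.10 for the brightest, 0.08 for another and -0.60 for the dimmest.

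Tead2, a TEAD gene of early development, measured -1.43 and -0.31 in CLC tumours, -1.07 and -1.85 in Epcam tumours, and -1.44 and -1.16 in Albumin tumours. CLC replicate 2 was the highest of the 6, and the groups overlapped in every comparison. Its dimmer probe was also highest on that array, at -3.11, against -5.07 for CLC replicate 1, which was not well above background. With CLC replicate 2 left out, the difference for CLC against Epcam tumours was 0.03, compared with 0.59 ± 0.48 (SE) over all arrays.

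Tead4 split every group. It measured -4.25 and -1.46 in CLC tumours, -3.46 and -1.85 in Epcam tumours, and -2.71 and -1.34 in Albumin tumours, with the lowest value not well above background. In each group 1 tumour stood above the other by more than any difference between group means, the largest of which was -0.83 ± 1.07 (SE; CLC tumours against Albumin tumours). Its other probe was well above background on 2 arrays, CLC replicate 2 and Epcam replicate 2, and did not pass the filter. The direction of the difference for CLC against Epcam tumours rested on single tumours: it was -0.20 over all arrays, and 1.20 with CLC replicate 1 left out.

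Among the target genes, Axl encodes a receptor tyrosine kinase that binds the ligand GAS6 and is a known YAP target in liver cancer cells. Axl signal was 4.60 and 4.13 in CLC tumours, 4.02 and 3.76 in Epcam tumours, and 2.71 and 3.58 in Albumin tumours. The groups stood in that order with no overlap between any of them. The means were 4.36 ± 0.34, 3.89 ± 0.18 and 3.14 ± 0.62 (SD, n = 2 each). The difference between CLC tumours and Albumin tumours was 1.22 ± 0.39 (log2, SE), a fold of 2.33, with an interval from 0.26 to 2.18. Its unadjusted limma p was 0.0214, the lowest of any member in any comparison, and the adjusted p over all features was 0.235.

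Axl kept its direction within slides. Within slide 1 the CLC tumour stood 1.46 above the mean of the 2 Albumin tumours, and within slide 2 the other CLC tumour stood 0.24 above the Epcam tumours, against 0.47 ± 0.39 (SE) over both slides. Epcam tumours differed from Albumin ones by 0.75 ± 0.39 (SE; adjusted p = 0.337). A dimmer Axl probe gave -3.05 and -2.67 in CLC tumours, -3.17 and -3.11 in Epcam tumours, and -5.25 and -3.45 in Albumin tumours, of which -5.25 was not well above background. That probe had the same order of groups, also without overlap.

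Markers of macrophages, cells that also express Axl, were on average highest in CLC tumours and lowest in Albumin tumours. Their linear signal summed over 10 genes, in multiples of the array's 75th percentile, was 164 and 99.98 in CLC tumours, 85.0 and 119 in Epcam tumours, and 54.2 and 71.4 in Albumin tumours. Of these 10 markers, 9 were higher in Epcam than in Albumin tumours, and 8 were higher in CLC tumours than in Albumin ones, with medians of 0.68 and 1.53. Adgre1, which encodes the macrophage antigen F4/80, differed by 1.69 ± 0.30 (log2, SE; adjusted p = 0.113) between CLC tumours and Albumin tumours. Clec4f, a Kupffer cell lectin, differed by 2.51 ± 1.30 in that comparison (SE; limma, adjusted p = 0.417), and its groups overlapped. Csf1r, the receptor for the macrophage growth factor, differed by 1.51 ± 0.34 (adjusted p = 0.148). Summed stellate and fibroblast markers (11 genes) were 101 and 82.2 in CLC tumours, 116 and 47.9 in Epcam tumours, and 42.8 and 71.5 in Albumin tumours, so CLC and Albumin tumours did not overlap. Of these 11 markers, 10 were higher in CLC than in Albumin tumours, with a median of 0.64. Of the 11, 6 were higher without overlap, against 23.8% of all features. Summed endothelial markers (10 genes) were 33.1 and 17.3 in CLC tumours, 20.2 and 19.6 in Epcam tumours, and 23.0 and 11.7 in Albumin tumours. Of these, 10 of 10 were higher in CLC than in Albumin tumours, with a median of 0.39, but only 1 without overlap, against 23.8% of all features. Of the macrophage, stellate and endothelial markers, 0 were called in any comparison, and the part of these cells in the Axl signal was not tested. In RNA from whole tumours, fewer cells of a type and less RNA per cell cannot be told apart.

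Amotl2 encodes an angiomotin that binds YAP and holds it back, and Ajuba a LIM protein that restrains LATS kinases. Amotl2 signal was 0.11 and 1.25 in CLC tumours, -0.38 and 1.11 in Epcam tumours, and -0.08 and -0.32 in Albumin tumours. Ajuba signal was -0.08 and 1.18 in CLC tumours, -0.82 and 0.95 in Epcam tumours, and -1.04 and -0.29 in Albumin tumours. For both genes the same 2 tumours were highest, CLC replicate 2 and Epcam replicate 2, which lie on slide 2. The third array of that slide, Epcam replicate 1, was the lowest of all 6 for Amotl2 and among the 2 lowest for Ajuba.

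Both CLC tumours lay above both Albumin tumours for each gene. The differences were 0.88 ± 0.61 for Amotl2 and 1.21 ± 0.72 for Ajuba (log2, SE, n = 2; limma, adjusted p = 0.534 and 0.472), folds of 1.84 and 2.32. Within slide 1 they were 0.31 and 0.59. Between Epcam and Albumin tumours the groups overlapped for both genes, with differences of 0.57 ± 0.61 and 0.73 ± 0.72 that rested on Epcam replicate 2. Without that tumour they were -0.18 and -0.15. For CLC against Epcam tumours, Amotl2 differed by 0.31 ± 0.61 and Ajuba by 0.48 ± 0.72, and with CLC replicate 2 left out the differences were -0.26 and -0.15.

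Ankrd1, an ankyrin repeat protein of stressed muscle and one of the most responsive YAP targets, varied more between tumours of a group than any other member. It measured -2.92 and -0.17 in CLC tumours, -4.94 and -3.21 in Epcam tumours, and -3.92 and 0.03 in Albumin tumours. The scanner's processed signals behind these values were 41.6 and 435 in CLC tumours, 13.8 and 49.4 in Epcam tumours, and 18.8 and 312 in Albumin tumours. High signal was thus found in 1 CLC tumour and in 1 Albumin tumour, and the other 4 tumours were at least 2 log2 units lower. The range over the 6 tumours was 31.4-fold, and the probe was well above background on each array. The lowest signals, 13.8 and 18.8, were nevertheless dim, so the range is imprecise. Tead4 in CLC replicate 1, at 16.6, was not well above background.

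Both CLC tumours exceeded both Epcam tumours for Ankrd1, by 2.53 ± 1.54 (log2, SE), a fold of 5.79, with an interval from -1.31 to 6.37 (limma, adjusted p = 0.999). Within slide 2 the difference was 3.91, and with CLC replicate 2 left out it was 1.16. Against Albumin tumours, CLC tumours differed by 0.40 ± 1.54 and Epcam tumours by -2.13 ± 1.54 (SE; adjusted p = 0.924 and 0.473). With Albumin replicate 2 left out the second of these was -0.16.

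Of 8 muscle markers, which share desmin (Des) with the stellate list, 4 passed the filter, and their linear signal summed to 0.493 and 1.40 in CLC tumours, 1.06 and 1.20 in Epcam tumours, and 0.666 and 0.550 in Albumin tumours. Tnnt2, Ckm, Myl2, Actc1 and Des are named after their values were seen. Tnnt2, the troponin T gene of heart muscle, was well above background on 2 arrays, at -5.20 in CLC replicate 2 and -3.15 in Albumin replicate 2, which are also the 2 tumours with high Ankrd1. Ckm, muscle creatine kinase, was well above background only in Albumin replicate 2, at -1.69. Myh7 was well above background in CLC replicate 2, at -2.21, and in Epcam replicate 1, at -3.83, where Ankrd1 was lowest. Myl2 was well above background only in Albumin replicate 1, at -4.59, a tumour with low Ankrd1. Markers that passed the filter went both ways. Acta1 and Actc1, actin genes of muscle, were lowest of all 6 arrays in Albumin replicate 2, at -3.91 and -1.84, where Ankrd1 was highest. Both were highest in CLC replicate 2, at -2.20 and 0.09, the other tumour with high Ankrd1. Myh6 was highest in Albumin replicate 2, at -3.14, and lay at -4.50 in CLC replicate 2. Des was highest in Epcam replicate 1, at -3.13. Among stellate markers, the collagen gene Col1a1 was highest in the same 2 tumours as Ankrd1, at 3.35 and 3.02, but the summed stellate level was highest in Epcam replicate 1, where Ankrd1 was lowest. The part of muscle or stroma in the Ankrd1 signal was not tested.

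**Figure D2:**
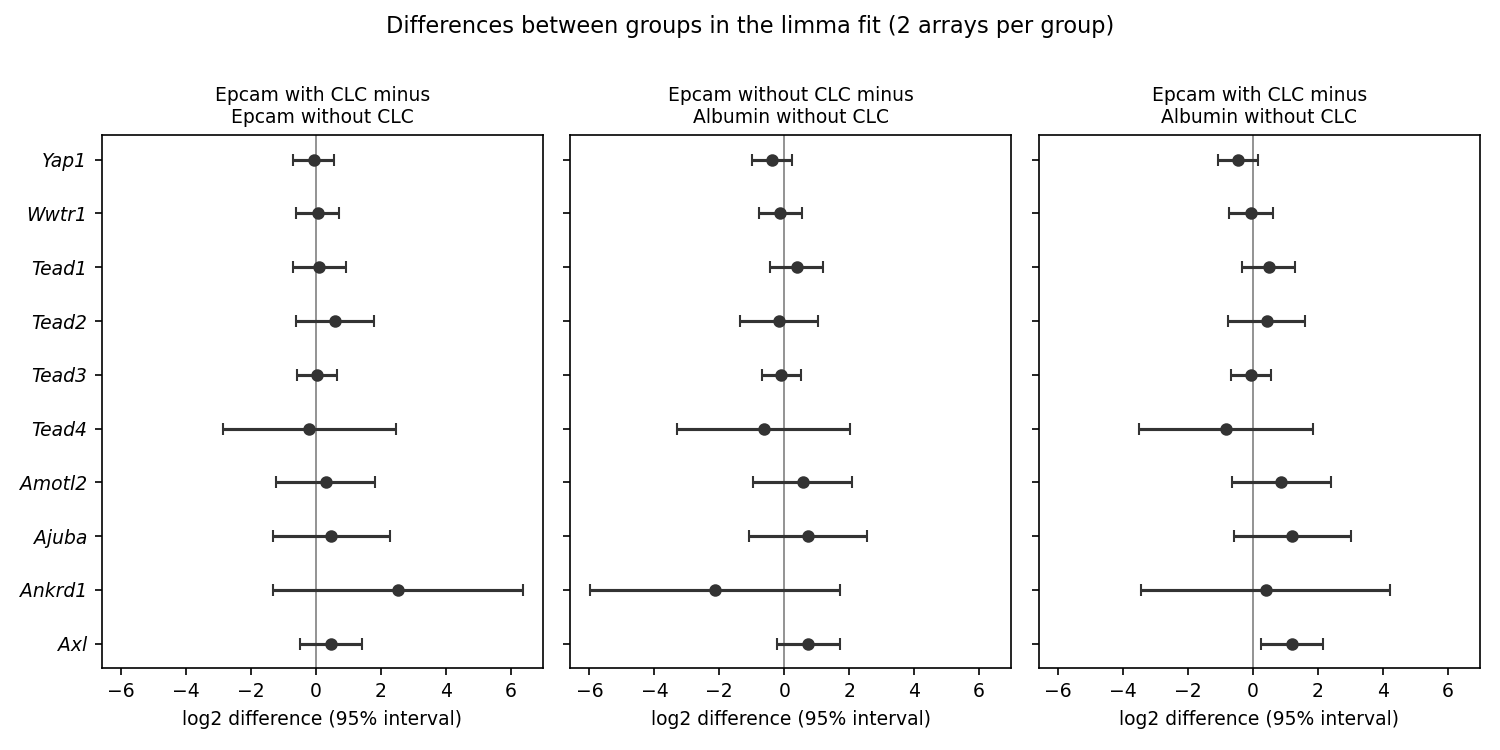
Log2 differences of the 10 genes (x axis) in the 3 comparisons, with 95% intervals from the limma fit of 6 arrays, 2 per group. The interval of Axl between CLC tumours and Albumin tumours, from 0.26 to 2.18, is the 1 interval of 30 that leaves out 0 before adjustment, and those of Tead4 and Ankrd1 are the widest.

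Groups without overlap were about as common or less common among the 10 genes than among all features. Between CLC and Epcam tumours, Ankrd1 and Axl were higher and Yap1 lower without overlap, 3 of 10 genes, against 30.1% of all features (10.3% higher and 19.8% lower). Between Epcam and Albumin tumours they were Axl, higher, and Yap1, lower, 2 of 10 against 55.2% (30.4% higher and 24.8% lower). Between CLC tumours and Albumin tumours, Axl, Ajuba, Amotl2 and Tead1 were higher and Yap1 lower, 5 of 10 against 50.8% (23.8% higher and 27% lower). The median difference over the 10 genes was 0.21, -0.10 and 0.42 in the same 3 comparisons, against -0.06, 0.06 and -0.01 over all features. Each of these medians changed sign when 1 array was left out: with CLC replicate 2 left out the first was -0.01 and the last was -0.07, and with Albumin replicate 2 left out the second was 0.05. With Epcam replicate 1 left out the second was 0.03.

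The members divided by how closely replicates agreed. The within-group SD, pooled over the 3 groups, was 0.10 log2 units for Tead3, 0.12 for Yap1 and 0.17 for Wwtr1, and 3.71%, 5.76% and 14.96% of all features had a smaller one. It was 0.77 for Amotl2, 0.94 for Ajuba, 1.43 for Tead4 and 2.09 for Ankrd1, above 86.2%, 91.0%, 97.2% and 99.3% of features. Axl, at 0.42, lay above 60.2%, Tead1 (0.31) above 43.5% and Tead2 (0.57) above 75.3%. The coactivator genes were thus among the steadiest transcripts between tumours of a group, and 3 of the 4 targets among the more variable.

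**Figure D3:**
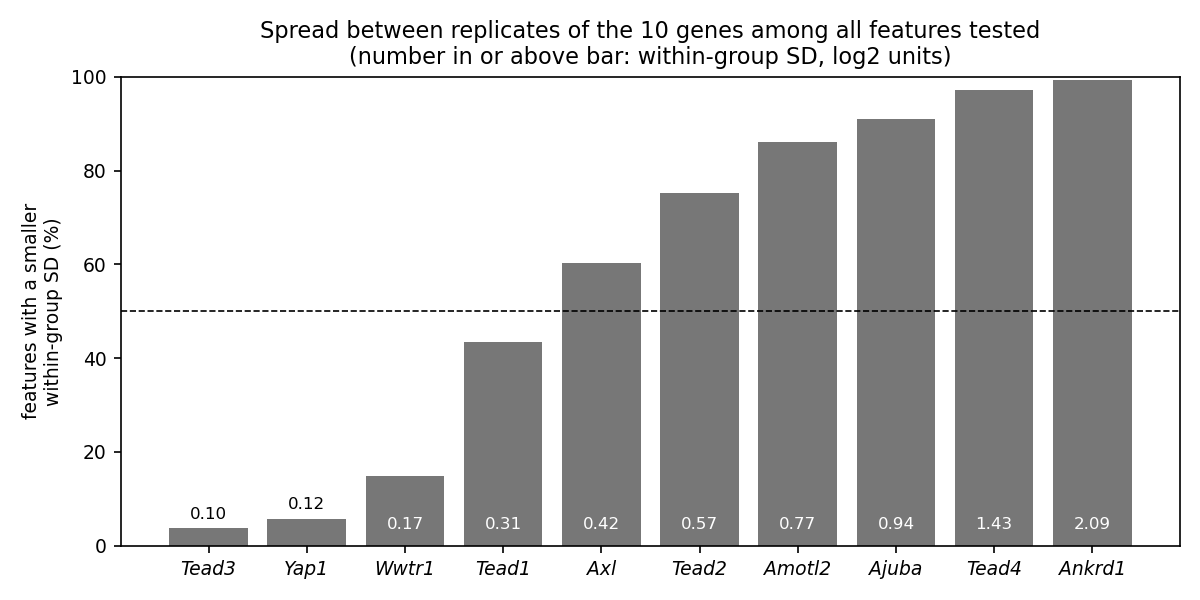
Percentage of the 27414 features with a smaller within-group SD than each gene (bars, y axis), with the SD in log2 units printed at each bar and a dashed line at the middle of the ranking. Tead3, Yap1 and Wwtr1 lie at or under 14.96%, and Amotl2, Ajuba, Tead4 and Ankrd1 lie above 86%.

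A wider list of 35 YAP target genes, which includes the 4 targets above and also genes that other pathways control, had 34 measured members. Foxf2, a forkhead factor, was not well above background on any array. None of the 34 passed the test over all features in any of the 3 comparisons, with 1 (CLC against Epcam), 6 (Epcam against Albumin) and 7 (CLC against Albumin) at an unadjusted p under 0.05, where 3.48%, 20% and 16% of all features had one. Of the 30 genes that are not members, 21 were higher and 9 lower in Epcam than in Albumin tumours, with a median of 0.41. The same counts held for CLC tumours, with a median of 0.35. Both of those comparisons use the same Albumin tumours. Of all features, 53.5% were higher in Epcam and 49.3% in CLC than in Albumin tumours, with medians of 0.06 and -0.01. For CLC against Epcam tumours, 18 of the 30 were higher and 12 lower, with a median of 0.095. Of all features 43.1% were higher there, with a median of -0.06. The part of macrophages and stellate cells in these differences was not tested.

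The genes of that list at the extremes went both ways. Ptpn14, a phosphatase that binds YAP, measured -3.08 and -0.06 in CLC tumours, 2.56 and 0.46 in Epcam tumours, and -3.63 and -2.99 in Albumin tumours. It was high in the Epcam tumours, which differed from Albumin tumours by 4.82 ± 1.14 (log2, SE; limma, adjusted p = 0.128). CLC tumours differed from Epcam tumours by -3.08 ± 1.14 (adjusted p = 0.999). Gadd45a, a growth arrest and DNA damage gene that p53 also induces, went the other way. It measured -0.34 and 1.07 in CLC tumours, -0.56 and 0.21 in Epcam tumours, and 3.07 and 2.66 in Albumin tumours. Its difference of -3.04 ± 0.55 (SE) between Epcam and Albumin tumours had the lowest adjusted p of the list, 0.0908.

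Areg, which encodes the EGF receptor ligand amphiregulin, measured -3.16 and -3.39 in CLC tumours, -1.60 and -6.43 in Epcam tumours, and 1.39 and 0.31 in Albumin tumours. The value of -6.43 was not well above background. Areg differed by -4.87 ± 1.499 in Epcam and -4.13 ± 1.499 in CLC tumours, each against Albumin tumours (log2, SE; adjusted p = 0.182 and 0.278). Spp1, osteopontin, a product of duct cells and macrophages, was highest in CLC tumours, at 5.88 and 6.73, against 1.99 and 5.20 in Albumin tumours, a difference of 2.71 ± 1.04 (adjusted p = 0.294). Jag1, a Notch ligand, differed by 1.40 ± 0.71 for CLC against Epcam tumours (adjusted p = 0.999).

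Ccn1 and Ccn2, the matricellular genes most often used to read YAP activity, were singled out after their values were seen. Ccn1 signal was -0.07 and 0.86 in CLC tumours, -1.06 and 0.34 in Epcam tumours, and -1.51 and -0.50 in Albumin tumours. Ccn2 signal was 2.24 and 2.98 in CLC tumours, 2.79 and 1.70 in Epcam tumours, and 1.20 and 1.89 in Albumin tumours. Both genes were higher, without overlap, in CLC tumours than in Albumin tumours, by 1.40 ± 0.63 for Ccn1 and 1.07 ± 0.50 for Ccn2 (log2, SE; limma, adjusted p = 0.356 and 0.373). In all, 15 of the 34 list genes were higher without overlap in that comparison and 4 were lower, against 23.8% and 27% of all features. Between Epcam and Albumin tumours 9 were higher and 5 lower without overlap, against 30.4% and 24.8%, and between CLC and Epcam tumours 4 were higher and 1 lower, against 10.3% and 19.8%.

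**Figure D4:**
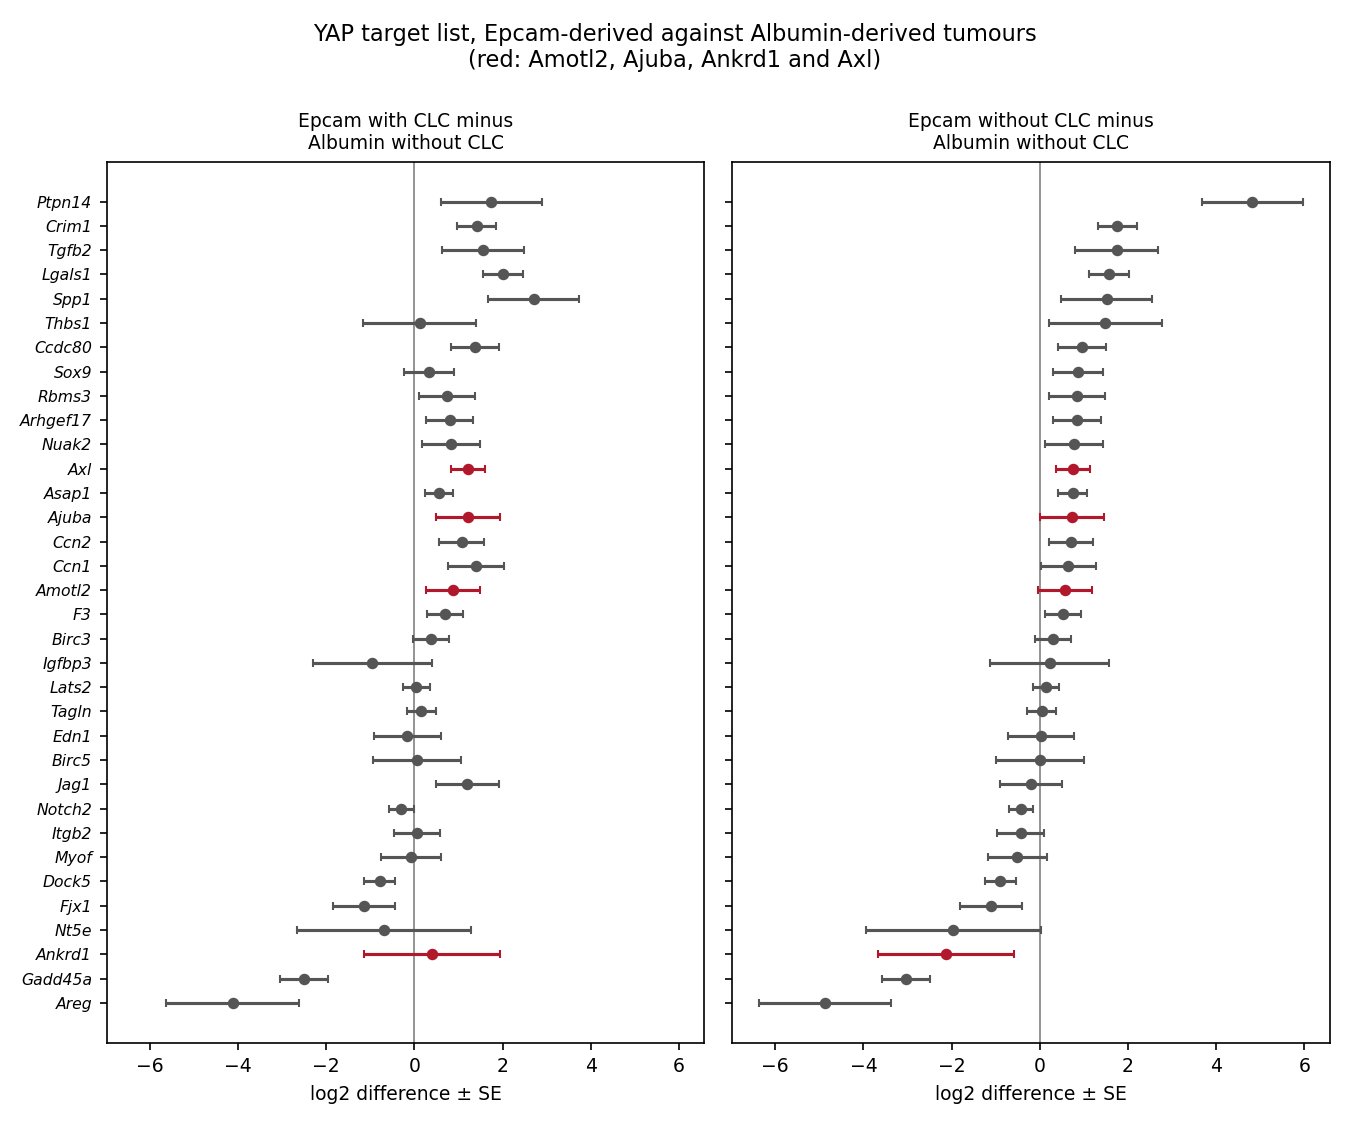
Log2 differences with SE (x axis) of 34 YAP target genes (rows, sorted by the right panel) for CLC tumours (left) and Epcam tumours (right), each against the same 2 Albumin tumours. Amotl2, Ajuba, Ankrd1 and Axl are in red. Ptpn14 leads the right panel at 4.82, Gadd45a and Areg lie lowest in both, and no gene passed the test over all features.

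Genes upstream of YAP had median differences near 0. Of 43 genes of the Hippo core and its regulators, 42 were measured and 0 were called in any comparison, with median differences of 0.005 for CLC against Epcam tumours, 0.10 for Epcam against Albumin tumours and 0.09 for CLC tumours against Albumin ones. Lats1 and Lats2, the kinases that phosphorylate YAP, differed by at most 0.49 in size in any comparison. Ptpn14, named above, had the largest difference in each. After it came Map4k1, a blood cell kinase, at 0.75 ± 0.27 and Wwc1, which encodes the scaffold KIBRA, at 0.73 ± 0.71 for CLC against Epcam tumours (log2, SE; adjusted p = 0.999 for each). Csnk1e, a casein kinase, differed by 0.99 ± 0.40 between Epcam and Albumin tumours (0.253), and Rassf5, a partner of MST kinases, by 1.29 ± 0.38 between CLC tumours and Albumin tumours (0.217). Fat4, an atypical cadherin, was not well above background on either Albumin array.

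Vestigial-like proteins compete with YAP for TEAD factors. Vgll1 and Vgll2 were not well above background on any array. Vgll3 measured -3.44 and 0.84 in CLC tumours, -2.41 and -2.63 in Epcam tumours, and -2.51 and -3.21 in Albumin tumours, so 1 CLC tumour stood apart from the other 5. Vgll4, which represses TEAD targets, differed by 0.84 ± 0.43 between Epcam and Albumin tumours (log2, SE; limma, adjusted p = 0.336).

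The receptors related to Axl and their ligands were measured as 4 further genes. Tyro3, another receptor of the family, measured -1.47 and -1.46 in CLC tumours, -2.50 and -3.44 in Epcam tumours, and -0.90 and -1.64 in Albumin tumours. It was lowest in the Epcam tumours, at 1.504 ± 0.43 for CLC against Epcam tumours and -1.70 ± 0.43 for Epcam against Albumin tumours (log2, SE; adjusted p = 0.999 and 0.139). Both differences share those 2 tumours. Pros1, which encodes the ligand protein S, measured 3.93 and 3.66 in CLC tumours, 4.18 and 4.004 in Epcam tumours, and 2.92 and 3.06 in Albumin tumours. It was higher in all 4 CLC and Epcam tumours than in either Albumin one, as Axl was, by 1.103 ± 0.26 in Epcam and 0.81 ± 0.26 in CLC tumours (SE; adjusted p = 0.126 and 0.238). Gas6, the ligand with the highest affinity for AXL, differed by 0.89 ± 0.47 for CLC against Epcam tumours, and 0 of the 5 genes of this group were called in any comparison.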

How the data were processed

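RNA from 6 frozen tumours, 2 in each of 3 groups, was labelled from 0.1 µg and hybridised to 1-colour Agilent arrays, per the labels' protocols. The deposited intensity came from Agilent's Feature Extraction software, version 11.5.1.1 in the file headers. That software subtracts local background within an array without scaling arrays to each other. The other deposited columns used are yes or no marks per spot. The authors' deposited value table holds that intensity multiplied within each array by a single factor, from 1.64 to 2.42, on a linear scale, not centred and in the same direction, with column medians of 55.0 to 79.95. What set those factors is unknown, and on the scale used here it gives the same values.

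Control and outlier spots were left out, log2 was taken, the 75th percentile of each array was subtracted, and replicate spots were averaged. Probes had to be well above background in 2 of 2 tumours of some group. Accessions were matched to RefSeq symbols (GRCm38.p6, names only, because the array is annotated on mm9), which named 32994 probes, and each gene was represented by its brightest probe. limma 3.58.1 in R 4.3.3 (with the packages data.table, version 1.17.8, and jsonlite, version 2.0.0) fitted all 6 arrays with 3 residual and 2.61 prior degrees of freedom. P-values are two-sided. The number of arrays limits the precision. The fit was tested on simulated data. The members and lists were chosen with earlier results of these data known. The other genes named are, in each comparison, the 3 of a pathway list with the largest difference, and the first 3 of a marker list, with exceptions said in the text. Alternatives covered background correction, normalization, filter, probe choice, replicate number, slide, groups in the fit and each array left out. A gene that the rule on similar patterns picks is not reported here.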

Additional observations from a re-analysis of the deposited data

How the results depend on the processing

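None of the 10 genes was called under any of the 17 alternatives tried in each comparison, where the lowest adjusted p (limma) was 0.707 for CLC against Epcam tumours, 0.185 for Epcam against Albumin tumours and 0.174 for CLC against Albumin tumours. Axl was higher in all 17 alternatives of each comparison and Yap1 lower, and for Axl in CLC against Albumin tumours the difference ranged from 0.78 to 1.65 with adjusted p from 0.174 to 0.555. The median over the members ranged from -0.01 to 0.56, from -0.51 to 0.05 and from -0.07 to 0.78 in the same order. Some of the 17 cannot change a gene's group difference. These are the authors' value table, the replicate blocks, the fit of only 2 groups and leaving out an array of the third group. The other filters also left the differences of the members they kept unchanged. A direction kept in those alternatives is no evidence that it is stable. The count of features called over the whole array was less stable. It was 0 for CLC against Epcam tumours throughout. For Epcam against Albumin tumours it was 67, and became 32 with the filter on all 6 arrays (which dropped Tead4), 110 with the mean of a gene's probes, 1 with no filter, 134 with normexp, 16 with only the 2 groups in the fit, 102 with quantile normalization, 11 with the replicate block, 131 with the crossed replicate block, 0 with slide as a block, 118 with slide as a random block, and 0 to 16 with 1 array left out. For CLC against Albumin tumours it was 17, and became 1 with no filter, 66 with normexp, 66 with quantile normalization, and 0 with only the 2 groups in the fit, with the replicate block, with slide as a block, within slide 1 and with any 1 array left out. The cause was not tested, and fits on fewer arrays have fewer degrees of freedom.

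Among the differences of single genes over all alternatives, 469 kept their sign and 38 changed it. Many of the 469 come from the alternatives above that cannot change a difference. For CLC against Epcam tumours, Tead1 became -0.14 with the mean of its probes and -0.10 within slide 2 and in the slide block, and Tead4 became 0.21 with normexp and 1.20 within slide 2 and in the slide block. For CLC against Albumin tumours, Wwtr1 became 0.031 with quantile normalization, while within slide 1 and in the slide block Tead2 was -0.13 and Ankrd1 -0.97. For Epcam against Albumin tumours, slide as a block gave -0.52 for Ajuba and -0.57 for Amotl2. That block separates these groups only through the CLC tumours. With 1 array left out, the ranges for CLC against Epcam tumours were -0.063 to 0.19 (Wwtr1), -0.17 to 0.38 (Tead1), -0.049 to 0.11 (Tead3), -1.59 to 1.20 (Tead4), -0.43 to 1.06 (Amotl2) and -0.40 to 1.37 (Ajuba). For Epcam against Albumin tumours they were -0.28 to 0.044 (Wwtr1), -0.55 to 0.23 (Tead2), -1.43 to 0.18 (Tead4), -0.18 to 1.31 (Amotl2) and -0.15 to 1.62 (Ajuba). For CLC against Albumin tumours they were -1.57 to 2.37 (Ankrd1), -0.14 to 0.028 (Tead3), -2.22 to 0.57 (Tead4), -0.22 to 0.11 (Wwtr1) and -0.13 to 0.995 (Tead2). An arm with 1 array left was taken to vary like the other groups.

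Replicate numbers were not taken to pair the samples in the main fit. Deviations of same-numbered arrays from their group mean correlated at 0.23 (CLC and Epcam), -0.16 (Epcam and Albumin) and 0.06 (CLC and Albumin), over 2 pairs each. With 2 arrays per group the 2 pairs mirror each other, so these values cannot settle whether samples are paired. The crossed block and normexp on the median signal were chosen after seeing the data. Normexp on the mean signal was not run. Tead4, the dimmer probes of Tead2 and Axl, and the lowest Ankrd1 values lie close to background, which limits their precision. Those Ankrd1 values had processed signals of 13.8 in Epcam replicate 1 and 18.8 in Albumin replicate 1.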

Other observations

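The genes whose pattern over the 6 arrays was most like Yap1 were Scn2a (Pearson r = 0.999), Popdc2 (0.998) and Rplp2 (0.993), of which Scn2a and Popdc2 were well above background on 5 arrays. Rplp2, a ribosomal protein gene, measured 7.31 and 7.56 in CLC tumours, 7.56 and 7.51 in Epcam tumours, and 7.86 and 8.33 in Albumin tumours (log2 signal relative to the 75th percentile). The genes most like Ankrd1, the member with the widest range, included Itga7 (0.980) and Tmem168 (0.977), each well above background on all 6 arrays. Itga7, an integrin chain of muscle and vessel walls, measured 0.40 and 1.01 in CLC tumours, -0.04 and 0.16 in Epcam tumours, and 0.16 and 0.88 in Albumin tumours. These correlations were picked as the highest of the 15868 features with a symbol over 6 points, which share slides and groups, and describe these arrays only.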
